A study of Schizosaccharomyces pombe with 8 samples.

Results

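The genes described here encode the proteins of the large (60S) subunit of the cytoplasmic ribosome of the fission yeast Schizosaccharomyces pombe. They were chosen by symbol, as rpl followed by a digit or as one of rpp101 to rpp103 and rpp201 to rpp203. Of the 7092 genes in the files, 89 met this rule. They are 82 protein-coding genes, the members, and 7 antisense RNAs named after ribosomal protein genes, which are described separately at the end. The 82 members encode 45 different proteins, 12 of them from 1 gene, 29 from 2 genes and 4 from 3 genes. The rule leaves out rpp0, ubi1 and uep1, which also encode large-subunit proteins. RNA was sequenced from 8 libraries in 4 groups of 2, and per the study's design text the 2 libraries of a group are biological replicates. A strain labelled ∆wee1, of mating type h- with the insertion wee1::ura4+ and the markers leu-32 and ura4-D18, was sampled after 15 min in 20 mM H2O2 and untreated. A wild-type strain (WT), also h- with the markers leu1-32 and ura4-D18, was sampled in the same 2 ways. All cultures were in the middle of logarithmic growth in rich medium (YES), and all carry the leucine and uracil marker mutations that the genotypes name. The sources used here do not say whether each strain is a single clone. Wee1 is a kinase that delays mitosis, and at this dose H2O2 is a strong oxidative stress.

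In the large subunit, ribosomal RNA forms the catalytic centre that joins amino acids, and the proteins hold that RNA in shape, guide tRNAs, line the exit tunnel of the growing chain and contact the small subunit and the translation factors. Most are needed in equal amounts, and growing yeast spends a large part of its transcription on them. In S. pombe many of these proteins come from more than 1 gene copy, and many of the promoters share a motif called the HomolD box, which in this yeast takes the place of a TATA box.

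The files give 1 pooled value per gene and group, in FPKM (fragments divided by transcript length and library size), so no value per library can be shown and the depth is unknown. A change is given as the log2 ratio of FPKM + 1, and ± is the standard error implied by the statistics in the authors' deposited table. A gene is said to have risen or fallen only where that table lists a q-value under 0.05, and is then termed called. FPKM are relative to the rest of the library, so a smaller share of the RNA and less of a transcript per cell cannot be told apart.

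The labels were checked first. The wee1 transcript stood at 15.5 and 16.1 FPKM in the ∆wee1-labelled pools after H2O2 and untreated, and 8.17 and 8.91 FPKM in WT after H2O2 and untreated, so it was higher under the deletion label, and the mutant pools are therefore called the pools labelled ∆wee1. The marker ura4 stood at 235 and 185 FPKM in the ∆wee1-labelled pools after H2O2 and untreated, and 0.0704 and 0.131 FPKM in WT after H2O2 and untreated. Ribosomal RNA genes held 3.19 and 10.9% of the summed FPKM in the ∆wee1-labelled pools after H2O2 and untreated, and 22.2 and 3.13% of the summed FPKM in WT after H2O2 and untreated. Nuclear protein-coding genes held between 73.2% (WT after H2O2) and 95.1% (WT untreated). The pool of WT after H2O2 stood apart in its total, with 2132030 summed FPKM, against 1315700 to 1380670 in the other 3. The medians of the gene groups are therefore also given rescaled to the nuclear protein-coding sum, while values of single genes are as deposited unless stated.

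Large-subunit genes were among the most abundant messages in every pool. Their mean over the 4 pools ran from 79.3 FPKM (rpl1603) to 17984 FPKM (rpl4301), with a median of 4204 FPKM, against 35.5 FPKM for the 5106 nuclear protein-coding genes. Of the 82, 77 averaged 1000 FPKM or more, 49 stood among the 100 highest nuclear protein-coding genes and 74 among the 200 highest. Together they made up 28.4 and 28.8% of the nuclear protein-coding FPKM in the ∆wee1-labelled pools after H2O2 and untreated, and 33.2 and 32.2% of the nuclear protein-coding FPKM in WT after H2O2 and untreated. Thus the share was lower in both pools labelled ∆wee1 than in both WT pools, and it differed less between treatments than between strains. The highest 3 members were rpl4301, which encodes L43, a zinc-binding protein, rpl3401 (L34) and rpl42 (L42, at the site where spent tRNA leaves). The level of rpl4301 was 15792 and 15621 FPKM in the ∆wee1-labelled pools after H2O2 and untreated, and 21896 and 18626 FPKM in WT after H2O2 and untreated. The level of rpl3401 was 13301 and 12225 FPKM in the ∆wee1-labelled pools after H2O2 and untreated, and 18695 and 15686 FPKM in WT after H2O2 and untreated. The level of rpl42 was 12455 and 11878 FPKM in the ∆wee1-labelled pools after H2O2 and untreated, and 17713 and 14040 FPKM in WT after H2O2 and untreated. In all 3 genes, WT after H2O2 was the highest pool and the untreated pool labelled ∆wee1 the lowest. The lowest 3 were rpl1603, rpl3402 and rpl3002, each the lesser copy of a protein (L16, L34 and L30) that another gene supplies at a far higher level. Over the whole set, 81 members were highest in WT after H2O2 and 1, rpl3402, in untreated WT. The lowest pool was the H2O2-treated one labelled ∆wee1 for 8 members and the untreated one of that label for 74. This order depends on the scaling: rescaled to the nuclear protein-coding sum, 2 members were highest in the untreated pool labelled ∆wee1, 62 in WT after H2O2 and 18 in untreated WT, while each pool of that label was the lowest for 39.

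**Figure D1:**
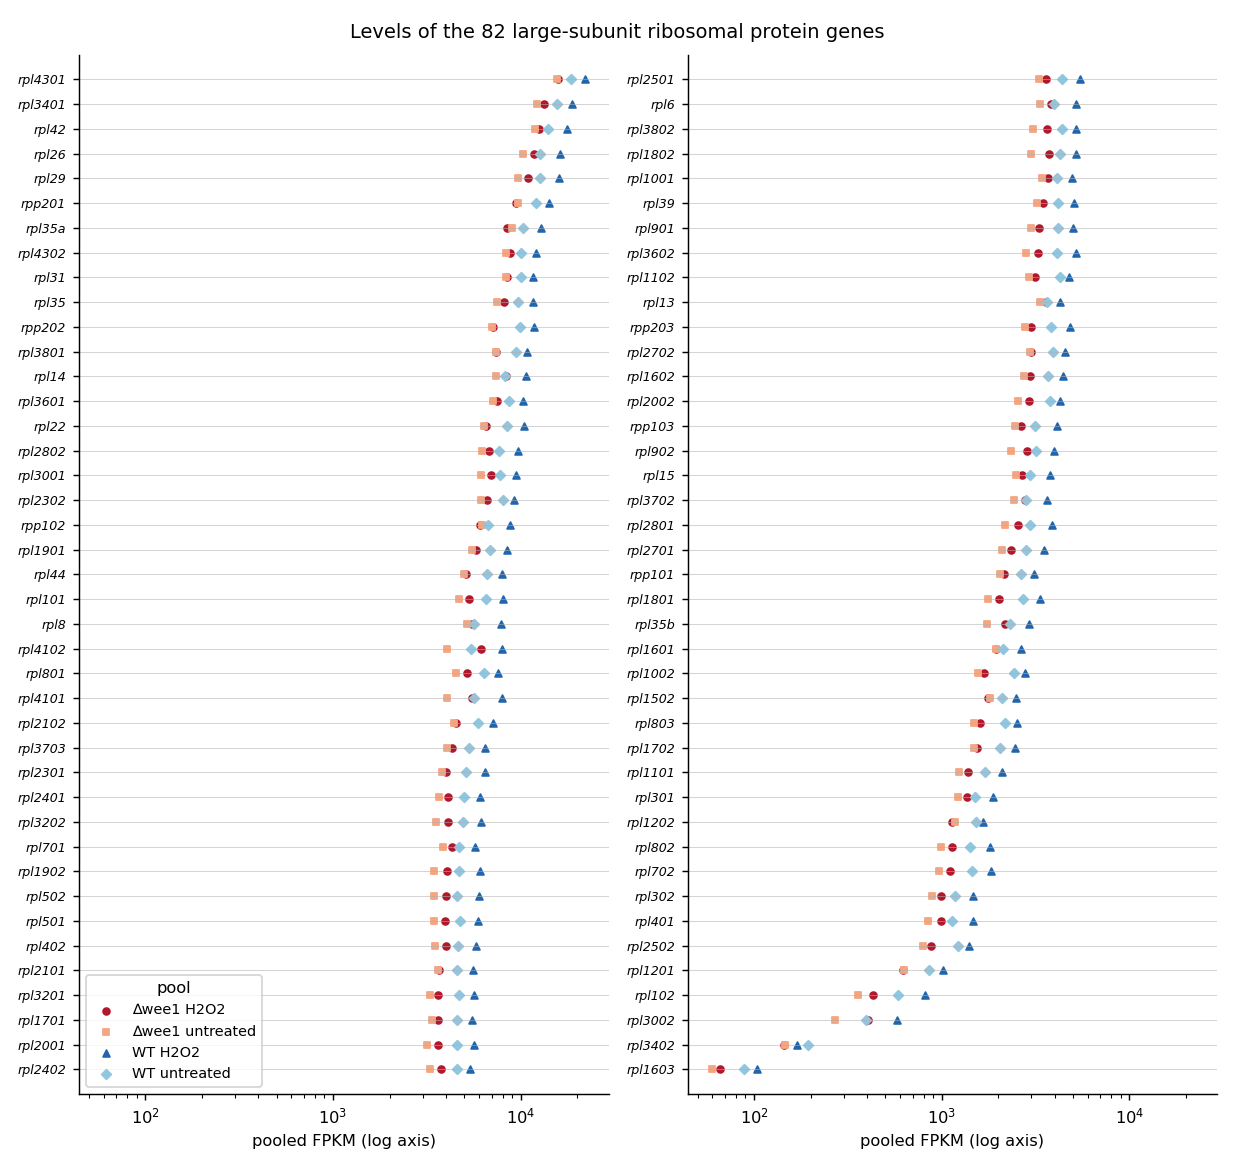
Pooled FPKM of each of the 82 large-subunit ribosomal protein genes on a log axis, ordered by mean level, with 1 point per pool (circles ∆wee1-labelled after H2O2, squares ∆wee1-labelled untreated, triangles WT after H2O2, diamonds WT untreated). There are no error bars, since the files give 1 value per pool; the WT H2O2 point is the rightmost in 81 of 82 genes, and 5 genes lie below 1000 FPKM on average.

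The first comparison asked how the strain labelled ∆wee1 differed from WT. After H2O2, every one of the 82 members had a lower value in the pool labelled ∆wee1, with a median log2 ratio of -0.56, that is 0.677 times the WT level. Untreated, all 82 were again lower, with a median of -0.41, or 0.751 times. In this comparison of strains, a gene that rose or fell was called higher or lower under the ∆wee1 label than in WT. By the authors' deposited table, 56 of the 82 fell between the treated pools (68.3%, against 7.01% of all 6333 genes tested). Between the untreated pools 22 fell (26.8%, against 4.21% of all 6292 genes tested). None rose in either, where 6.51% of all genes tested did after H2O2 and 4.64% untreated. All of the 22 are among the 56. The median over nuclear protein-coding genes was 0.05 after H2O2 and 0.03 untreated. The 55 small-subunit ribosomal protein genes had medians of -0.52 after H2O2 and -0.41 untreated, with 35 and 15 of them lower in the authors' deposited table. Among 90 other nuclear protein-coding genes of 1000 FPKM or more, the medians were -0.23 after H2O2, where 10 rose and 12 fell, and -0.10 untreated, where 10 rose and 7 fell. With the pools rescaled to the nuclear protein-coding sum the members' medians were -0.25 after H2O2, with 80 members below 0, and -0.21 untreated, with 77 below 0. The median of all nuclear protein-coding genes then stood at 0.35 after H2O2 and 0.23 untreated. Rescaling adds 0.31 to each strain ratio after H2O2 and 0.20 to each untreated one. The 56 members called after H2O2 then lay between -0.60 and -0.14, and the 22 called untreated between -0.50 and -0.25, all still below 0, though calls exist for the deposited scale alone. The members make up 28.4 to 33.2% of that sum and small-subunit genes 20.6 to 23.9%, so these genes weigh on their own scaling. Without ribosomal protein genes in the sum, an alternative chosen after seeing the data, the medians were -0.50 after H2O2 and -0.40 untreated. All 82 members were then below 0 in both. Those 2 comparisons use different pools, but each shares its pools with the H2O2 comparisons below.

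**Figure D2:**
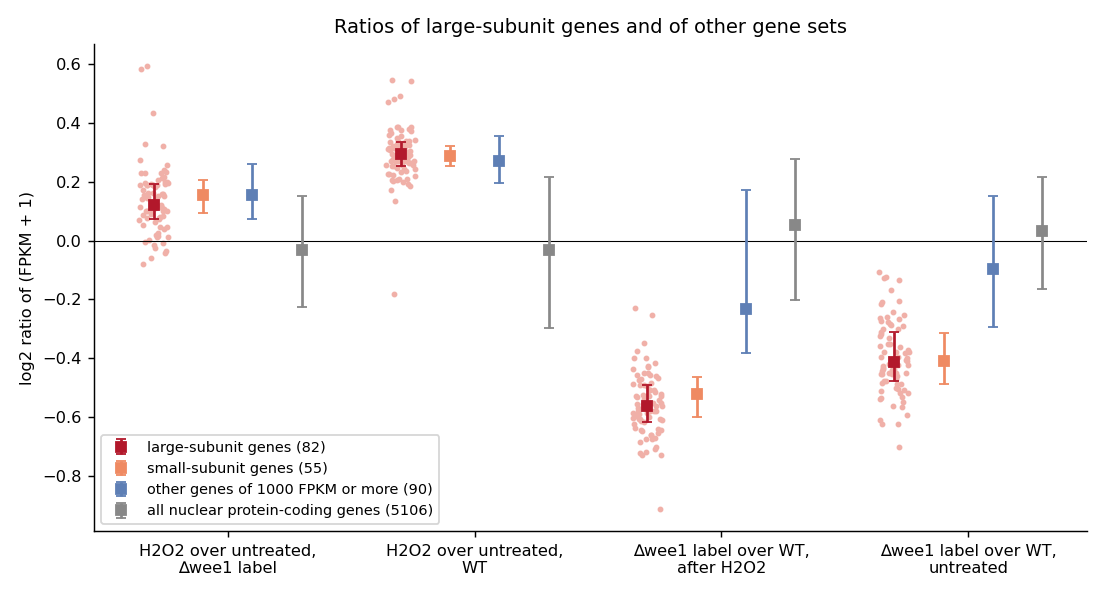
Log2 ratio of FPKM + 1 in the 4 comparisons, with small points for the 82 large-subunit genes and squares with bars for the median and the middle 50% of genes in 4 gene sets (large-subunit, small-subunit, other genes of 1000 FPKM or more, all nuclear protein-coding). Both ribosomal protein sets lie below 0 in the ∆wee1-over-WT comparisons, at medians of -0.56 after H2O2 and -0.41 untreated for the large subunit; its medians above 0 in the H2O2 comparisons turn to -0.01 under the ∆wee1 label and shift to 0.05 in WT when pools are rescaled to the nuclear protein-coding sum.

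The stalk of the large subunit, which recruits and activates the GTPase translation factors, is built from the acidic proteins P1 and P2 on a base that includes L12. Between the H2O2-treated pools, 7 of its 8 genes were called lower under the ∆wee1 label than in WT by the authors' deposited table. They were rpl1201 (-0.71), rpl1202 (-0.56), rpp101 (-0.53), rpp102 (-0.53), rpp103 (-0.64), rpp201 (-0.58) and rpp202 (-0.72), as log2 ratios. The gene left out, rpp203, had a similar ratio with a larger error (-0.68 ± 0.54), and its locus in the files is merged with other genes. The P2 gene rpp202 stood at 7132 and 7001 FPKM in the ∆wee1-labelled pools after H2O2 and untreated, and 11756 and 9924 FPKM in WT after H2O2 and untreated. Its ratio was -0.72 ± 0.26 after H2O2 (q = 0.000819) and -0.50 ± 0.25 untreated (q = 0.034, both called in the authors' deposited table). The P1 gene rpp102 stood at 6083 and 6229 FPKM in the ∆wee1-labelled pools after H2O2 and untreated, and 8758 and 6703 FPKM in WT after H2O2 and untreated. Between the treated pools it was called lower under the ∆wee1 label than in WT (-0.53 ± 0.24). Untreated it had the smallest strain difference of all 82 members (-0.11 ± 0.24). Its WT value after H2O2 was the highest, and the other 3 pools lay close together. The L12 gene rpl1201 was called lower under the ∆wee1 label in both strain comparisons (-0.71 ± 0.21 after H2O2 and -0.46 ± 0.21 untreated). However, its sequence is nearly that of rpl1202, as described below.

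L5 and L11 join 5S ribosomal RNA before it enters the new subunit. Between the H2O2-treated pools, all 4 of their genes were called lower under the ∆wee1 label than in WT by the authors' deposited table. The log2 ratios were -0.59 (rpl1101), -0.61 (rpl1102), -0.59 (rpl501) and -0.57 (rpl502). Between the untreated pools both L11 genes were also called lower under that label, rpl1101 (-0.46) and rpl1102 (-0.54). The L11 gene rpl1102 stood at 3130 and 2923 FPKM in the ∆wee1-labelled pools after H2O2 and untreated, and 4783 and 4244 FPKM in WT after H2O2 and untreated. Both pools labelled ∆wee1 lay below both WT pools, with a wider gap between strains than between treatments.

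Next to the catalytic centre and along the path of tRNA lie L1, the mobile arm that guides spent tRNA out, L2 and L3, which support the centre, L10, which reaches towards the bound tRNAs, and L42. Between the H2O2-treated pools, 7 of their 10 genes were called lower under the ∆wee1 label than in WT by the authors' deposited table. They were rpl1002 (-0.73), rpl101 (-0.62), rpl102 (-0.91), rpl302 (-0.58), rpl801 (-0.56), rpl802 (-0.67) and rpl803 (-0.65). Between the untreated pools, 4 were called lower under that label: rpl1002 (-0.62), rpl102 (-0.70), rpl802 (-0.51) and rpl803 (-0.54). The largest strain difference of all members was in rpl102, the lesser of the 2 copies for L1 (chromosome II, 3060549 to 3061591, ASM294v3). It stood at 429 and 359 FPKM in the ∆wee1-labelled pools after H2O2 and untreated, and 809.6 and 584 FPKM in WT after H2O2 and untreated. Both pools labelled ∆wee1 were below both WT pools, with ratios of -0.91 ± 0.24 after H2O2 (q = 0.000819) and -0.70 ± 0.23 untreated (q = 0.000819, both from the authors' deposited table). The other L1 gene, rpl101, had a ratio of -0.62 ± 0.28 after H2O2, which is called, and -0.49 ± 0.27 untreated, which is not. The L10 gene rpl1002 stood at 1680 and 1568 FPKM in the ∆wee1-labelled pools after H2O2 and untreated, and 2786 and 2413 FPKM in WT after H2O2 and untreated, with ratios of -0.73 ± 0.24 after H2O2 and -0.62 ± 0.24 untreated. Again both pools labelled ∆wee1 lay below both WT pools as deposited, with 1 value per pool and so no spread to compare.

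L4, L17 and L39 line the tunnel through which the new chain leaves, and L19, L22, L25, L26, L31 and L35 lie around its mouth, where L25 is the docking site of the signal recognition particle. Between the H2O2-treated pools, 9 of their 13 genes were called lower under the ∆wee1 label than in WT by the authors' deposited table. They were rpl1701 (-0.61), rpl1702 (-0.67), rpl1901 (-0.54), rpl1902 (-0.59), rpl22 (-0.66), rpl2501 (-0.60), rpl2502 (-0.68), rpl39 (-0.56) and rpl401 (-0.55). Between the untreated pools only rpl2502, a copy for L25, was called lower under that label (-0.62 ± 0.32). The level of rpl2502 was 873 and 791 FPKM in the ∆wee1-labelled pools after H2O2 and untreated, and 1394 and 1218 FPKM in WT after H2O2 and untreated, so both pools labelled ∆wee1 lay below both WT pools. The tunnel-mouth gene rpl22 stood at 6552 and 6347 FPKM in the ∆wee1-labelled pools after H2O2 and untreated, and 10351 and 8437 FPKM in WT after H2O2 and untreated. Here the treatments lay close together under the ∆wee1 label and further apart in WT.

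L24, L30 and L41 form bridges to the small subunit; L41 is a short basic peptide and one of the smallest known ribosomal proteins. Between the H2O2-treated pools, 4 of their 6 genes were called lower under the ∆wee1 label than in WT by the authors' deposited table. They were rpl2401 (-0.57), rpl2402 (-0.51), rpl3002 (-0.51) and rpl4101 (-0.53). Between the untreated pools, 3 were called lower under that label: rpl2402 (-0.48), rpl3002 (-0.55) and rpl4101 (-0.47). The second L41 gene, rpl4102, had one of the smallest strain differences after H2O2 (-0.38 ± 0.27) and was not called in that comparison.

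The other 41 genes encode proteins spread over the body of the subunit. Between the H2O2-treated pools, 25 of them were called lower under the ∆wee1 label than in WT by the authors' deposited table. They were led by rpl702 (-0.73), rpl1801 (-0.72), rpl2301 (-0.70), rpl3602 (-0.66), rpl2001 (-0.65), rpl3201 (-0.64), rpl1603 (-0.64) and rpl2102 (-0.64). A further 9 lay between -0.63 and -0.58, namely rpl44, rpl901, rpl2101, rpl2801, rpl35a, rpl2702, rpl1602, rpl3703 and rpl3202. The last 8 lay between -0.58 and -0.45, namely rpl2701, rpl2002, rpl3801, rpl29, rpl3802, rpl1502, rpl15 and rpl3601. Between the untreated pools, 10 were called lower under that label: rpl1801 (-0.61), rpl702 (-0.59), rpl2002 (-0.56), rpl1603 (-0.56), rpl3602 (-0.53), rpl2001 (-0.52), rpl3201 (-0.52), rpl3802 (-0.50), rpl3202 (-0.48) and rpl2801 (-0.45). The L7 gene rpl702 stood at 1105 and 962 FPKM in the ∆wee1-labelled pools after H2O2 and untreated, and 1833 and 1450 FPKM in WT after H2O2 and untreated, and the L18 gene rpl1801 at 2028 and 1774 FPKM in the ∆wee1-labelled pools after H2O2 and untreated, and 3339 and 2707 FPKM in WT after H2O2 and untreated. Both pools labelled ∆wee1 lay below both WT pools in either gene. In the files the loci of rpl1801, and of rpl102, rpl1002 and rpl2502 above, are merged with another gene. These genes have the most negative untreated strain ratios of the members. Among the 52 members with a locus of their own, the median strain ratios were -0.56 after H2O2 and -0.40 untreated. The smallest strain differences after H2O2 were in rpl3402 (-0.23 ± 0.21), rpl13 (-0.25 ± 0.26), rpl14 (-0.35 ± 0.43), rpl4102 and rpl3702 (-0.40 ± 0.22). None of them was called in that comparison. Untreated, the smallest were in rpp102, rpl1601 (-0.12 ± 0.23), rpl13 (-0.13 ± 0.26), rpl8 (-0.13 ± 0.28) and rpl14 (-0.17 ± 0.42). The L13 gene rpl13, the only gene for its protein, stood at 3594 and 3331 FPKM in the ∆wee1-labelled pools after H2O2 and untreated, and 4282 and 3635 FPKM in WT after H2O2 and untreated. Its pool labelled ∆wee1 after H2O2 lay only slightly below untreated WT. Rescaled to the nuclear protein-coding sum, the median strain ratios after H2O2 and untreated were -0.30 and -0.17 for the stalk, -0.28 and -0.25 for the partners of 5S RNA, -0.29 and -0.29 for the centre and tRNA path, -0.24 and -0.21 for the tunnel, -0.20 and -0.25 for the bridges and -0.23 and -0.20 for the other 41.

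Members with and without a second copy were set side by side. Between the treated pools, 4 of the 12 single-copy genes were called lower under the ∆wee1 label than in WT, against 52 of the 70 genes that have copies. Between the untreated pools none of 12 against 22 of 70 were called lower. Their median strain ratios (log2) were -0.51 against -0.58 after H2O2 and -0.28 against -0.43 untreated. This is a description of the list, with no test of the difference. Across the 82 genes, Spearman's rho between mean level and strain ratio was 0.26 after H2O2 and 0.43 untreated, with lower genes showing the more negative ratios. These points come from the same pools, and genes are not independent replicates.

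The second comparison asked what 15 min of H2O2 did to these genes in each strain. Under the ∆wee1 label the median log2 ratio of H2O2 over untreated was 0.12 (1.09 times), and 74 of 82 members lay above 0. In the authors' deposited table, 3 rose (3.66% of the members, against 5.34% of all 6312 genes tested) and none fell (4.13% of all genes tested did). In WT the median was 0.29 (1.23 times) and 81 lay above 0. There 4 rose in the authors' deposited table (4.88%, against 6.96% of all 6277 genes tested) and none fell, against 7.47%. These shares of calls are below the shares over all genes tested. The median of nuclear protein-coding genes was -0.03 in both strains, that of small-subunit genes 0.16 under the ∆wee1 label and 0.29 in WT, and that of other genes of 1000 FPKM or more 0.15 under that label and 0.27 in WT. The direction depends on the scaling. Rescaled to the nuclear protein-coding sum, the members' median was -0.01 under the ∆wee1 label with 40 members above 0, and 0.05 in WT with 63 above 0. That scaling moved the median of all nuclear protein-coding genes by -0.13 under the ∆wee1 label and -0.24 in WT.

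The members that rose were few. Both L41 genes and rpl3002, the lesser L30 copy, rose in both strains by the authors' deposited table, and rpl102 rose in WT. The other bridge genes, rpl2401, rpl2402 and rpl3001, were called in neither strain. In the files the loci of rpl4101, rpl4102 and rpl102 are merged with other genes, and among the 52 members with a locus of their own rpl3002 was the one that rose. The gene rpl4102 (chromosome I, 2853647 to 2853931, ASM294v3) stood at 6136 and 4067 FPKM in the ∆wee1-labelled pools after H2O2 and untreated, and 7960 and 5458 FPKM in WT after H2O2 and untreated. Its ratio was 0.59 ± 0.27 under the ∆wee1 label (q = 0.0205) and 0.54 ± 0.27 in WT (q = 0.0352, both from the authors' deposited table). The treated pool was above the untreated pool in each strain, and the treated pool labelled ∆wee1 was also above untreated WT. The other L41 gene, rpl4101 (chromosome I, 5401849 to 5402246, ASM294v3), stood at 5501 and 4069 FPKM in the ∆wee1-labelled pools after H2O2 and untreated, and 7922 and 5637 FPKM in WT after H2O2 and untreated. It was higher after H2O2 by 0.43 ± 0.23 under the ∆wee1 label (q = 0.0437) and 0.49 ± 0.23 in WT (q = 0.023, both from the authors' deposited table). The 2 genes encode the same peptide of 25 residues, and summed over both the ratio was 0.52 in each strain, the highest of the 45 proteins in both. The L30 gene rpl3002 (chromosome I, 5095073 to 5095879, ASM294v3) stood at 407 and 271 FPKM in the ∆wee1-labelled pools after H2O2 and untreated, and 578 and 397 FPKM in WT after H2O2 and untreated, with ratios of 0.58 ± 0.21 under the ∆wee1 label (q = 0.000819) and 0.54 ± 0.21 in WT (q = 0.00447, both from the authors' deposited table). In budding yeast L30 also binds its own pre-mRNA and limits its splicing. The ratio of rpl102 was 0.26 ± 0.24 under the ∆wee1 label, which is not called, and 0.47 ± 0.23 in WT (q = 0.0309 in the authors' deposited table), where it rose. Rescaled to the nuclear protein-coding sum, these ratios stayed above 0: under the ∆wee1 label 0.46 for rpl4102, 0.30 for rpl4101 and 0.45 for rpl3002, and in WT 0.30 for rpl4102, 0.24 for rpl4101, 0.29 for rpl3002 and 0.22 for rpl102.

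Among members that were not called, the L8 gene rpl8 had a ratio of 0.09 ± 0.28 under the ∆wee1 label and one of 0.48 ± 0.29 in WT. Under that label the next highest ratios were in rpl1802 (0.33 ± 0.28) and rpl35b (0.32 ± 0.24), copies for L18 and L33. The lowest ratios under it were in rpl35a (-0.08 ± 0.24), rpl1202 (-0.06 ± 0.23), rpp201 (-0.04 ± 0.24), rpp102 (-0.03 ± 0.24) and rpl1502 (-0.03 ± 0.23). The lowest WT ratios were in rpl3402 (-0.18 ± 0.21), the only one below 0 as deposited, rpl1202 (0.13 ± 0.23), rpl1102 (0.17 ± 0.25), rpl2002 (0.19 ± 0.26) and rpl2502 (0.19 ± 0.32). The 8 stalk genes had a median of 0.01 under the ∆wee1 label and 0.25 in WT, and the 6 bridge genes one of 0.32 under that label and 0.39 in WT. The medians of the 4 other groups of members lay between 0.12 and 0.18 under the ∆wee1 label and between 0.29 and 0.31 in WT. After rescaling to the nuclear protein-coding sum, the stalk median was -0.13 under the ∆wee1 label and -0.0018 in WT, the bridge median 0.18 under that label and 0.14 in WT, and the other 4 lay between -0.02 and 0.04 under that label and between 0.04 and 0.07 in WT.

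**Figure D3:**
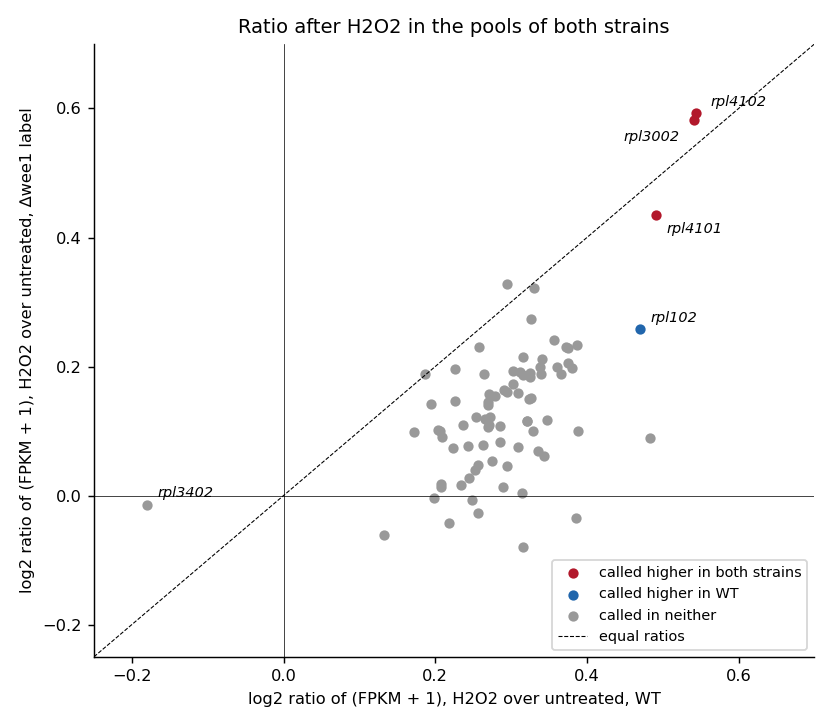
Log2 ratio of FPKM + 1, H2O2 over untreated, for the 82 large-subunit genes, with the pools labelled ∆wee1 on the vertical axis and WT on the horizontal axis; colours give the calls of the authors' deposited table and the dashed line marks equal ratios. Most points lie below the line, while rpl3002, rpl4101 and rpl4102 lie at the upper right and rpl3402 alone lies left of 0. Rescaling to the nuclear protein-coding sum would shift all points left and down together, to medians of -0.01 under the ∆wee1 label and 0.05 in WT.

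Whether the response itself differed between strains was tested per gene with a normal z test on the difference of the 2 log2 ratios (∆wee1 label minus WT), with Benjamini-Hochberg adjustment over 6108 genes. No member passed at an adjusted p under 0.05, and none had an unadjusted p under 0.05. Over all genes tested 0.0327% were higher and 0.278% lower by this test. The median difference of the members was -0.15, while that of nuclear protein-coding genes was within 0.01 of 0, and 77 of 82 lay below 0. The most negative was rpp102 (-0.42 ± 0.34), and rpl3402 was the highest (0.17 ± 0.30). The errors are wide: the z values of all genes had a robust SD of 0.451 where about 1 would hold for exact errors, so a member below the threshold may still respond differently. Rescaled to the nuclear protein-coding sum, the median difference was -0.04.

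Copies of one protein were compared next. The 33 proteins with copies give 41 pairs of genes. The paired proteins are alike (median identity 96.4%, from 78.2% in rpp202 and rpp203 to 100% in 8 pairs), and their coding sequences have a median identity of 85.8%, from 69.1% to 99.6%. Levels differed more than responses. The higher copy stood at a median of 1.92 times the lower one, and 5 pairs differed by 10-fold or more. The share that each copy gave to its protein's total moved by a median of 2.48 percentage points over the 4 pools and by at most 5.65 (rpl1001 and rpl1002). The widest gap was in L34, where rpl3401 stood 91.5 times above rpl3402, a gene of 111 residues that differs from it at 4 positions (chromosome III, 1321348 to 1322217, ASM294v3). The level of rpl3402 was 145 and 147 FPKM in the ∆wee1-labelled pools after H2O2 and untreated, and 170.3 and 193 FPKM in WT after H2O2 and untreated. As deposited it was the only member with a lower value after H2O2 in WT, without a call, and the WT ratios of rpl3401 and rpl3402 differed by 0.43 ± 0.35. Rescaled to the nuclear protein-coding sum, 19 members had a WT ratio below 0. For L16, rpl1603 (chromosome II, 3443254 to 3445951, ASM294v3) stood at 65.9 and 59.4 FPKM in the ∆wee1-labelled pools after H2O2 and untreated, and 103 and 88.3 FPKM in WT after H2O2 and untreated, far below rpl1601 at 1945 and 1941 FPKM in the ∆wee1-labelled pools after H2O2 and untreated, and 2632 and 2116 FPKM in WT after H2O2 and untreated. Untreated, the strain ratio of rpl1601 was above that of rpl1603 by 0.44 ± 0.33, the largest difference between copies in any comparison. The rpl1603 transcript of 2640 bases is the longest of the members, and FPKM divides by length. For L30, rpl3001 stood 18.3 times above rpl3002, and its H2O2 ratio under the ∆wee1 label was lower (-0.42 ± 0.33). The level of rpl3001 was 6901 and 6175 FPKM in the ∆wee1-labelled pools after H2O2 and untreated, and 9490 and 7735 FPKM in WT after H2O2 and untreated. For L33, the H2O2 ratios of rpl35a and rpl35b differed by -0.40 ± 0.34 under the ∆wee1 label and by -0.02 ± 0.35 in WT. The level of rpl35a was 8480 and 8960 FPKM in the ∆wee1-labelled pools after H2O2 and untreated, and 12852 and 10330 FPKM in WT after H2O2 and untreated, and that of rpl35b was 2170 and 1736 FPKM in the ∆wee1-labelled pools after H2O2 and untreated, and 2899 and 2305 FPKM in WT after H2O2 and untreated. Under that label rpl35b had a higher value after H2O2 than before it and rpl35a a lower one, and neither was called. For L10 and L7 the largest differences were between strains: rpl1001 minus rpl1002 was 0.34 ± 0.36 untreated, and rpl701 minus rpl702 was 0.33 ± 0.37 after H2O2. These 4 differences in L34, L16, L30 and L33 were the ones larger than 1 standard error. In the files the loci of rpl1603, rpl3001 and rpl35b are merged with other genes, while both L34 genes have a locus of their own. No pair differed by over 2 standard errors in any of the 4 comparisons. These errors come from the same implied standard errors, which are wide (robust SD of z of 0.451 for the response difference). A pair within 2 standard errors may therefore still differ. Rescaling moves both copies of a pair alike. The median difference between copies ran from 0.07 (H2O2 in WT) to 0.10 (both strain comparisons), against a median standard error of 0.35 to 0.36.

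In the 29 proteins with exactly 2 copies, the lower copy had the more negative strain ratio in 18 after H2O2 and in 23 untreated, with a median difference (lower minus higher copy) of -0.04 in each. For the H2O2 ratios it was the lower copy in 11 under the ∆wee1 label and 10 in WT. No test was made of these counts. Reads that match both copies limit some of these values. In 6 members more than 10% of all 50-base stretches of the transcript also occur in another transcript: rpl1201 (85.7%), rpl1202 (70.6%), rpl301 (66.8%), rpl302 (56.1%), rpl1002 (41.3%) and rpl1001 (36.1%). The sources used here do not say how the authors counted such reads, so the split between these copies is uncertain, also where 1 copy is called and the other is not. Summed over copies, the 45 proteins ranged from 2152 FPKM (L12) and 2622 FPKM (L3) to 23896 FPKM (P2) and 27784 FPKM (L43). The 2 lowest totals belong to the 2 proteins whose genes have the largest shares of such 50-base stretches, and the part of read sharing in that was not tested.

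**Figure D4:**
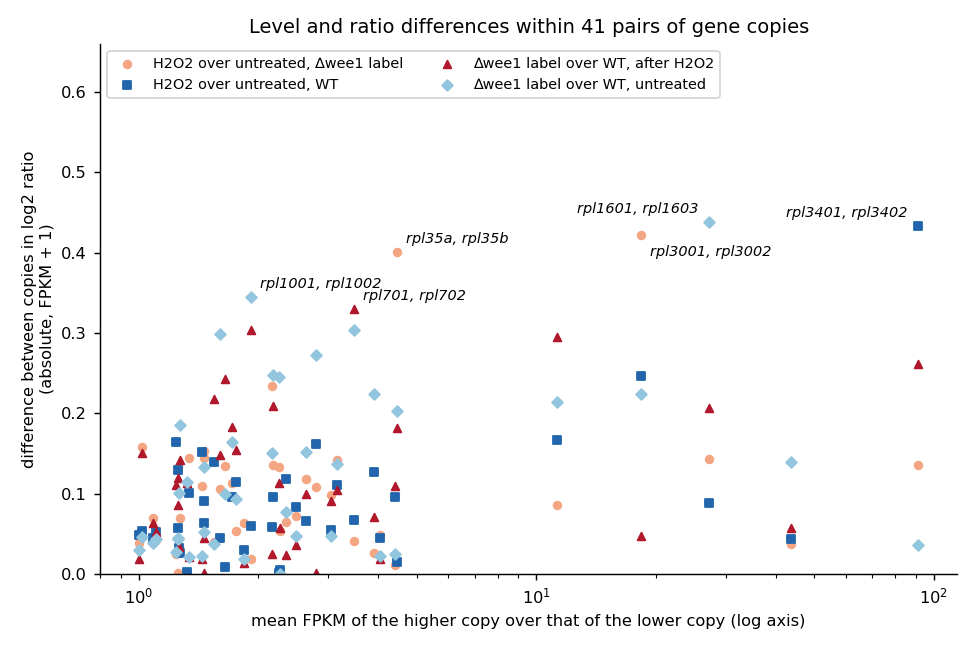
Each of the 41 pairs of gene copies, with the ratio of mean levels on a log horizontal axis and the absolute difference between copies in log2 ratio (FPKM + 1) on the vertical axis, 1 point per comparison. The 5 pairs at 10-fold or more are those of L34, L16 (2 pairs), L30 and L1; the largest difference is 0.44, and no error bars are drawn because the standard errors, about 0.35, would cover the plot. These errors are wide, so they do not show that copies respond alike.

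The promoters of the copies are shown to set the members with called H2O2 ratios and the widest gaps in level beside the HomolD motif. Coding sequence and transcript length also differ between these copies. Gene starts, strands and sequence are from RefSeq (ASM294v3), and the sources used here do not give the files' own build. Each line gives the 100 bases before the annotated gene start, 5′ to 3′ on the gene's strand. Capitals mark the HomolD box CAGTCACA or its core AGTCAC, read on either strand, and the HomolE box ACCCTACCC. The first 4 are the copies for L30 and L41, of which 3 genes rose after H2O2 in both strains.
rpl3001, chrI:1974084-1974183, minus strand: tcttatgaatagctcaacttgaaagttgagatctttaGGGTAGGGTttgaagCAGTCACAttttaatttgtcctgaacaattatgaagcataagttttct
rpl3002, chrI:5095880-5095979, minus strand: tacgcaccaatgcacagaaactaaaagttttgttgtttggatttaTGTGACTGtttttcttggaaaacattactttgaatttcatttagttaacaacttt
rpl4101, chrI:5402247-5402346, minus strand: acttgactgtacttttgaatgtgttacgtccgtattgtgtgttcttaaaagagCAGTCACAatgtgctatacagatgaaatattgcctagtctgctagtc
rpl4102, chrI:2853932-2854031, minus strand: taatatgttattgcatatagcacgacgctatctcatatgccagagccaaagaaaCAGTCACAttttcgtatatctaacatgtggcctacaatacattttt

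The next 6 belong to the other proteins with a copy at least 10-fold below another: L1, L34 and L16, with the higher copy first in each.
rpl101, chrIII:612580-612679, minus strand: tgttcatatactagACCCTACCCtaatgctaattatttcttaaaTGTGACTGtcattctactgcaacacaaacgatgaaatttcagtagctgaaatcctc
rpl102, chrII:3060449-3060548, plus strand: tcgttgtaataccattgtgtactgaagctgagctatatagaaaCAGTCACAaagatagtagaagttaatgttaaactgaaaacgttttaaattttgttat
rpl3401, chrI:4093799-4093898, minus strand: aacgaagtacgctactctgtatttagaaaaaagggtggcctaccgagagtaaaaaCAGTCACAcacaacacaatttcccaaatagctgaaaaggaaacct
rpl3402, chrIII:1321248-1321347, plus strand: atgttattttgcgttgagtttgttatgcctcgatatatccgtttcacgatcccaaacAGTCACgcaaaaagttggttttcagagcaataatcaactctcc
rpl1602, chrI:4097226-4097325, plus strand: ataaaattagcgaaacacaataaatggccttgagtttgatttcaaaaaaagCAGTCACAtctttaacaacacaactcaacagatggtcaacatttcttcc
rpl1603, chrII:3443154-3443253, plus strand: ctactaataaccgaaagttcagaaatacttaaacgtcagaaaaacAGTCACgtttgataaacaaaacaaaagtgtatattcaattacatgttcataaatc

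In a window from 250 bases before to 50 bases after the gene start, searched on both strands, the HomolD box CAGTCACA occurred in 54 of 82 members (65.9%), against 137 of all 5145 nuclear protein-coding genes in RefSeq (2.66%) and 34 of 55 small-subunit genes (61.8%). The core AGTCAC, which every such box contains, occurred in 77 members (93.9%), in 50 small-subunit genes (90.9%) and in 10.1% of all genes. The HomolE box ACCCTACCC occurred in 20 members (24.4%), in more of the small-subunit genes (21, or 38.2%) and in 1.3% of all genes. Of the boxes nearest the gene start, 52 began 40 to 75 bases before it, and the median position was -50.5. The very low copies rpl3402 and rpl1603 both hold CAGTCACG in place of CAGTCACA, a form that was looked at after their values were seen. It occurs in 19 members, whose mean levels ran from 79.3 to 12294 FPKM with a median of 4066 FPKM, against a median of 4260 FPKM for the 54 members with CAGTCACA. Members with and without the box CAGTCACA had nearly the same median ratios: 0.15 and 0.10 for H2O2 under the ∆wee1 label, 0.30 and 0.27 for H2O2 in WT, -0.56 and -0.57 between strains after H2O2 and -0.42 and -0.40 between strains untreated. A match is a description of these letters and not a binding site. Introns occur in 43 of the 82 members (52.4%) and in 48.3% of nuclear protein-coding genes, and the median strain ratio after H2O2 was -0.54 with introns and -0.58 without.

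Genes that work with the large subunit were read from lists chosen with earlier results of these data known. The 60S assembly factors build the subunit in the nucleolus and escort it to the cytoplasm; 40 of 61 listed symbols were found and 39 genes tested. After H2O2, 3 of them rose and 1 fell under the ∆wee1 label in the authors' deposited table, with a median of 0.13, and in WT 13 rose and 1 fell, with a median of 0.37. The risers were 7.69% under the ∆wee1 label, against 5.34% of all genes tested, and 33.3% in WT, against 6.96%, and the fallers 2.56% in each, against 4.13% and 7.47%. Between strains, none rose and 2 fell after H2O2 (median -0.12), and 4 rose and 1 fell untreated (median 0.20). After H2O2 the fallers were 5.13%, against 7.01% of all genes tested, and untreated the risers were 10.3%, against 4.64%, and the fallers 2.56%, against 4.21%. Once rescaled as above, the H2O2 medians were -0.0040 under the ∆wee1 label and 0.13 in WT, and the strain medians 0.19 after H2O2, which is the opposite sign, and 0.40 untreated. The gene rrb1, whose budding yeast counterpart is the chaperone of L3, was higher after H2O2 by 0.74 ± 0.23 under the ∆wee1 label and 1.13 ± 0.22 in WT. With it nop16 (0.70 ± 0.22 under the ∆wee1 label and 1.12 ± 0.22 in WT) and mak16 (0.66 ± 0.26 under that label and 1.02 ± 0.29 in WT) rose in both strains by that table. Rescaled, these 3 lay between 0.52 and 0.61 under the ∆wee1 label and between 0.77 and 0.89 in WT. In the untreated strain comparison the median of the assembly factors was thus above 0 and that of the members below it. Of 10 translation elongation factor genes found, none was called in 3 of the comparisons. There 4.13 to 7.47% of all genes tested were called in each direction. Between strains after H2O2, tif512, an eIF5A gene, fell (-0.52 ± 0.27 by the authors' deposited table). That is 10% of the list, against 7.01% of all genes tested, so these counts are near the shares over all genes. The medians of the 10 genes between strains were -0.29 after H2O2 and -0.17 untreated. Once rescaled they were 0.02 and 0.03, again with the opposite sign, and tif512 was then at -0.21 after H2O2. Of 7 regulators of ribosomal protein genes found, sfp1, the counterpart of a budding yeast activator of these genes, rose after H2O2 in both strains by the authors' deposited table (0.70 ± 0.27 under the ∆wee1 label and 0.71 ± 0.28 in WT, and 0.59 and 0.49 once rescaled). Its level was low, at 11.4 and 6.62 FPKM under that label after H2O2 and untreated, and 10.5 and 6.04 FPKM in WT. It was the only riser of the list in each strain (14.3%, against 5.34 and 6.96% of all genes tested), and 4 of the 7 lay below 0. The list medians were -0.04 under the ∆wee1 label and -0.06 in WT, and -0.17 and -0.29 once rescaled. The high mobility group gene hmo1 was higher in the untreated pool labelled ∆wee1 by the same table (0.50 ± 0.21, and 0.70 once rescaled). It was the only call of the list between strains (14.3% untreated, against 4.64% of all genes tested). The list medians there were 0.21 after H2O2 and 0.11 untreated, and 0.51 and 0.29 once rescaled.

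The 7 antisense RNAs that share these symbols were not called in any comparison in the authors' deposited table. The highest was rpl102-antisense-1, at 127 and 78.7 FPKM in the ∆wee1-labelled pools after H2O2 and untreated, and 123 and 72.6 FPKM in WT after H2O2 and untreated, and the next, rpl1801-antisense-1, reached 23.2 FPKM in WT after H2O2. The ratio of rpl102 to this antisense RNA was 3.39 and 4.56 in the ∆wee1-labelled pools after H2O2 and untreated, and 6.56 and 8.04 in WT after H2O2 and untreated. The antisense ratio of H2O2 over untreated was 0.68 ± 0.46 under the ∆wee1 label and 0.76 ± 0.59 in WT. The library kit keeps strand, but the sources used here do not give the strand setting used in counting, so the level of rpl102 could include reads of its antisense partner. The RNA named rpl20-antisense-1 shares its locus with rps2 and rps20 and not with an L20 gene. Among the 82 members, 30 lie in a locus that the files merge with at least 1 other gene.

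**Figure D5:**
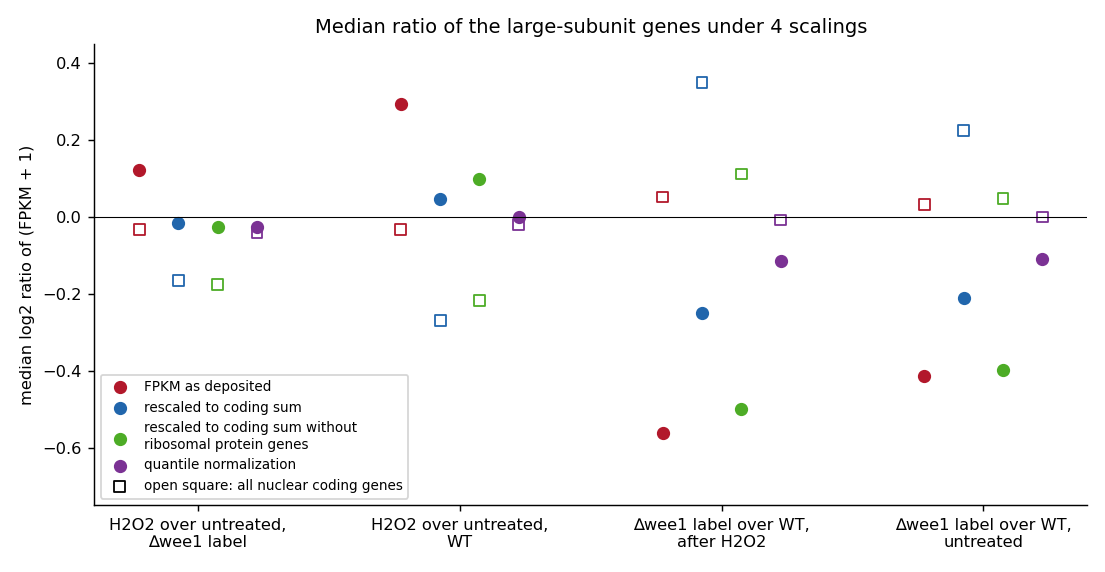
Median log2 ratio of FPKM + 1 of the 82 large-subunit genes (filled circles) and of all nuclear protein-coding genes (open squares) in the 4 comparisons, as deposited and under 3 other scalings. The members' medians stay below 0 in both ∆wee1-over-WT comparisons under all 4 scalings, while for H2O2 over untreated they lie below 0 under the ∆wee1 label in each of the 3 rescalings and range from 0.00 to 0.29 in WT.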

How the data were processed

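Poly(A) RNA was sequenced with a strand-keeping kit, and cutadapt, HISAT2 and Cuffdiff were used, per the submitters' processing notes (the sources used here give no versions, genome build or strand setting). The authors' FPKM combine the 2 libraries of a group into 1 deposited value. For each gene and pair of groups, the authors' deposited table holds their log2 fold change, statistic (a score), p-value and q-value, per the file headers. The 2 value columns of that table were not used here. Calls are the authors' at a q-value under 0.05, over all genes tested. Here the log2 ratio of FPKM + 1 was computed, with errors from fold change over statistic, split into a variance per pool (6113 genes). The response difference used a z test. The smallest p-value in the deposited table is 5e-05. Gene IDs were matched to RefSeq (6737 of 7092 genes and all 82 members), and protein sequences in the files were aligned between copies with Biopython 1.88. Python 3.11.15, pandas 2.3.3, numpy 2.4.6, scipy 1.17.1 and matplotlib 3.10.9 were used.

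The members, the gene lists and the alternatives were chosen with earlier results of these data known. Genes named are all members called in any comparison, the 5 highest and 5 lowest ratios per comparison, the stalk genes, the copies of the 6 proteins whose copies differ most, and the 3 highest and 3 lowest levels. Up to 4 genes a list were allowed. Genes needed a mean of at least 1 FPKM for the response difference. Depth per sample is unknown, so no interval or detection limit was computed. Other pseudocounts, level minimums, scalings, thresholds and subsets of members were tried.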

Additional observations from a re-analysis of the deposited data

How the results depend on the processing

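Under pseudocounts of 0.1 and 5 FPKM, no level minimum and a minimum of 10 FPKM, every median and count of the 5 comparisons kept its direction and size. This was largely fixed in advance and is no sign of robustness. The lowest member mean was 79.3 FPKM, so both level settings keep all 82 members, and small pseudocounts hardly move such ratios. Calls in the 4 comparisons are the authors' and do not use these settings. The strain difference stayed below 0 in the median under all scalings. Rescaled to the nuclear protein-coding sum, the median H2O2 ratio was -0.015 under the ∆wee1 label (40 members above 0) and 0.046 in WT, the strain ratio was -0.25 after H2O2 (2 members above 0) and -0.21 untreated (5 above 0), and the response difference was -0.039. Without ribosomal protein genes in that sum, an alternative chosen after seeing the data, the H2O2 medians were -0.025 under the ∆wee1 label (37 above 0) and 0.10 in WT. In that setting the strain medians were -0.50 after H2O2 and -0.40 untreated, with all 82 members below 0 in both. Quantile normalization, which fixes the values at the top ranks that these genes largely fill, gave H2O2 medians of -0.026 under the ∆wee1 label (27 above 0) and 0 in WT (36 above 0), strain medians of -0.11 after H2O2 (11 above 0) and -0.11 untreated (16 above 0) and a response difference of -0.031; there rpl3601 turned to 0.058 between strains after H2O2. At a q-value under 0.01, 1 member rose after H2O2 under the ∆wee1 label and 1 in WT. Between strains 33 were lower under that label after H2O2 and 6 untreated. The share of all genes tested at this threshold was not computed, so these counts cannot be set against a background. At a q-value under 0.05 and a fold of at least 2, 0 remained in all 4 comparisons. Among members with a locus of their own, 1 of 52 rose in each strain, and the largest difference between copies was 0.15 for H2O2 under the ∆wee1 label and 0.30 between strains untreated. Among the 12 members without another copy, 0 rose after H2O2 in either strain, and between strains 4 fell after H2O2 and 0 untreated, with an untreated median of -0.28. No paired analysis was possible because the columns carry no replicate; blocking by replicate and leaving out single libraries were not run. The deposited calls rest on 2 libraries a group, with unknown depth.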
